A study of Mus musculus with 4 samples.

Results

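The genes described here encode the protein subunits of the cytosolic ribosome. They were taken from the deposited gene table by symbol, as Rpl or Rps followed by a number or as Rpsa, Rplp0, Rplp1 or Rplp2, without the S6 kinases, which share the Rps6 prefix. Only a single letter and a single digit could follow the number, so Rpl36al is left out. Of 24016 rows, 84 had such a symbol, and 81 of these reached a mean level of at least 1 CPM (counts scaled to library size) over the libraries and are the members below, 33 of the small and 48 of the large subunit. The values come from RNA sequencing of colon in 4 libraries, 1 for each condition. All mice were germ-free C57BL/6 aged 7 weeks, and pieces of 4 cm of colon were taken. The libraries came from mice given L. rhamnosus GG by gavage (LGG, a probiotic Lactobacillus strain), from mice gavaged with Escherichia coli at the same stated dose, from mice gavaged with phosphate-buffered saline (PBS), and from untreated mice. Tissue of the gavaged mice was taken 4 h after gavage, with 4 mice in each of these groups. The labels state neither whether a library pools several mice nor when the untreated tissue was taken. Whole colon holds epithelium, muscle, immune and other cells, so fewer cells of a type and less RNA per cell cannot be told apart. With 1 library per condition there is no test between conditions, and each interval covers counting error only.

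Ribosomal proteins are made in near-equal amounts and assembled with ribosomal RNA in the nucleolus, and their mRNAs are among the most abundant in most cells. Many of these mRNAs begin with a cytosine followed by a run of pyrimidines, the 5′ terminal oligopyrimidine (TOP) element. Through this element, mTOR and the RNA-binding protein Larp1 control the translation of these mRNAs, and Larp1 also affects their stability. A change in the translation of these mRNAs need not change their level, which is the only quantity measured here.

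The start sequences are shown first because the TOP element is known from many of these mRNAs and the choice by symbol did not use it. The 45 bases around the annotated start, 25 before it and 20 from it on, are printed 5′ to 3′ for the 14 members with a RefSeq entry that are among the highest or lowest of a comparison, from RefSeq on GRCm38.p6. Capitals mark the longest run of C or T that touches the 10 bases on either side of the start, which is the base after the first 25.
Rps26, chr10:128626487-128626531, minus strand: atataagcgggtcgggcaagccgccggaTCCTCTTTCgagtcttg
Rpl18, chr7:45718046-45718090, plus strand: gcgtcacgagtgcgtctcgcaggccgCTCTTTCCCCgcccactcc
Rpl14, chr9:120571492-120571536, plus strand: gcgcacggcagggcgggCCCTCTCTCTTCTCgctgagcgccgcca
Rpl28, chr7:4792940-4792984, plus strand: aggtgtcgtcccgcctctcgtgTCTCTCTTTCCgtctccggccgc
Rplp2, chr7:141447626-141447670, plus strand: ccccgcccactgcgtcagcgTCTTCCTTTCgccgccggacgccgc
Rplp0, chr5:115559442-115559486, plus strand: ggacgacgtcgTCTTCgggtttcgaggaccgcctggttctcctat
Rps24, chr14:24490653-24490697, plus strand: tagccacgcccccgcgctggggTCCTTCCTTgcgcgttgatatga
Rps27l, chr9:66946061-66946105, plus strand: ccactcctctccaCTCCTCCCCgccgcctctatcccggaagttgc
Rpl31, chr1:39367826-39367870, plus strand: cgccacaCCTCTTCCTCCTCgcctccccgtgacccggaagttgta
Rpl39, chrX:37085203-37085247, minus strand: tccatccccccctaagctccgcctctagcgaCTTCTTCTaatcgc
Rpl41, chr10:128549149-128549193, minus strand: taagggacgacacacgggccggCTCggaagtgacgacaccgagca
Rpl9, chr5:65391412-65391456, minus strand: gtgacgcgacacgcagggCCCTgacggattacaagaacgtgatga
Rps28, chr17:33824543-33824587, minus strand: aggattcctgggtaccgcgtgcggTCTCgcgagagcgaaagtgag
Rpl7l1, chr17:46782637-46782681, minus strand: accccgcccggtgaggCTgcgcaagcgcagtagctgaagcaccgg
A start promoter entry was found for 60 of the 81 members. A C/T run of at least 7 bases near the start, read on the transcript strand, was present in 33 of these 60 (55%), against 22.5% of all 27025 genes with an entry. A C at the annotated start followed by at least 4 C or T bases was present in 13 members (21.7%), against 3.01% of all genes. For a gene with several entries, the entry with the longest run was kept and printed. The arrangement with C was counted if any entry of the gene had it. Both choices favour genes with more entries, and they were the same for members and all genes. Of the lines above, only Rpl14, Rpl28 and Rplp2 had that arrangement. Rps26 and Rpl18 had a run of 9 and 10 bases that began just after the annotated start, while the longest run had 2 bases in Rpl7l1, 3 in Rpl41 and 4 in Rpl9 and Rps28. These are letters in a window around an annotated start, which can lie some bases from the start used in colon.

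The members took 4.03% of all counts in the LGG library (exact binomial 95% interval 4.02 to 4.04), 3.95% in the E. coli library, 3.76% in the PBS library (3.75 to 3.76) and 3.86% in the untreated library. Total counts were 29899371, 29368008, 16289580.0 and 27220697 in that order of libraries, so the PBS library was the shallowest. Counts were scaled by trimmed mean of M-values (TMM) factors of 0.979 for LGG, 0.989 for E. coli, 0.985 for PBS and 1.05 for untreated. After this scaling the summed level of the members was 41188 CPM in LGG, 39967 in E. coli, 38121 in PBS and 36768 in untreated colon. The untreated library is the lowest on the scaled level and PBS is the lowest on the plain share of counts, so the order of these libraries depends on the scaling. The ribosomal RNA precursor row Rn45s took 1.13% of counts in LGG, 0.567% in E. coli, 1.26% in PBS and 0.247% in untreated colon, and its part in these shares was not tested. Without all non-coding rows the shares were 4.18%, 4.08%, 3.90% and 3.96% in the same order, with PBS again the lowest.

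Per kilobase of listed transcript, the median member had 710 CPM in LGG, 687 in E. coli, 646 in PBS and 639 in untreated colon. Rplp1, an acidic protein of the stalk that recruits elongation factors, was the highest per kilobase by the mean over the libraries, at 1759 CPM in LGG, 1526 in E. coli, 1474 in PBS and 1454 in untreated colon. Rpl41, which encodes a very short basic peptide, followed at 1633, 1477, 1479 and 1262 CPM per kilobase in the same order, and lay just above Rplp1 in PBS. Rps9, Rps3a1 and Rps14, all of the small subunit, completed the 5 highest by that mean. The lowest was Rps4l, a paralog of the X-linked Rps4x, at 14.7 CPM per kilobase in LGG, 14.4 in E. coli, 13.4 in PBS and 15.9 in untreated colon. Rpl7l1, a paralog of Rpl7, had 27.8, 28.02, 30.04 and 26.2 CPM per kilobase. Rps15a and Rpl22 came next, each listed with a long transcript of 5127 and 2348 bases, and then Rps27l, a paralog of Rps27. A long listed transcript lowers a level per kilobase, so the places of Rps15a and Rpl22 rest on the listed model.

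**Figure D1:**
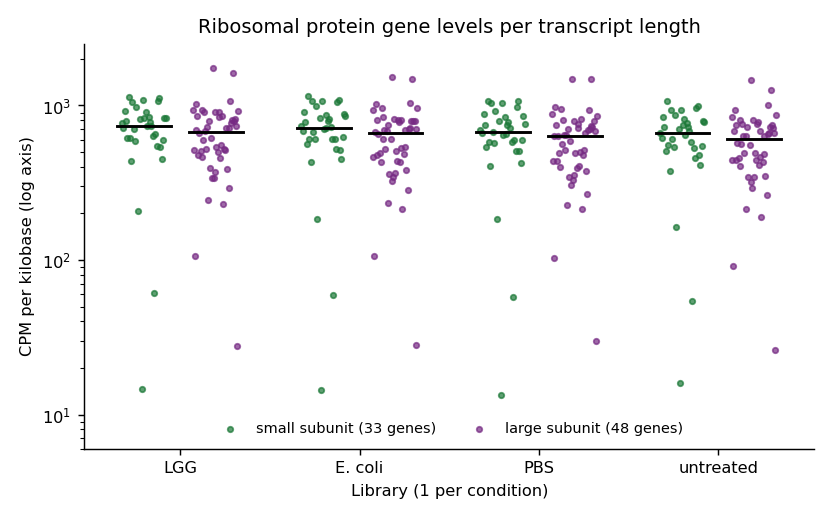
Level of each of the 81 genes in CPM per kilobase of listed transcript (log axis) in the LGG, E. coli, PBS and untreated libraries, for the 33 small and 48 large subunit genes. Each point is a gene and the bar is the median; most genes lie within a narrow band in every library, and the low points are Rps4l, Rpl7l1, Rps15a, Rpl22 and Rps27l.

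The other 3 symbols matched the rule but stayed under the minimum, and all are tissue-restricted paralogs. Rpl3l, a paralog of Rpl3 known from skeletal and heart muscle, had 0 counts in LGG, 2 in E. coli, 0 in PBS and 4 in untreated colon. Rpl10l and Rpl39l, paralogs of Rpl10 and Rpl39 known from testis, had 0 counts in all libraries, which allows up to 0.103 CPM in LGG, 0.103 in E. coli, 0.187 in PBS and 0.105 in untreated colon. Their parents were abundant, with Rpl3 at 804 CPM in LGG, 816 in E. coli, 761 in PBS and 762.1 in untreated colon, and Rpl10 at 740, 739, 693 and 658 CPM. The nearest gene above the minimum was Rps4l, with a mean of 13.7 CPM, and the nearest below was Rpl3l, with a mean of 0.052 CPM. The minimum therefore falls in a wide gap between them.

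Some rows share reads with a copy or a neighbour. Another row overlapped the span of 34 members, on the same strand for 28 of them, mostly as small nucleolar RNAs or microRNAs inside introns with few counts. For 5 members the overlapping row had at least 0.5 times as many counts as the member. Rps27 and the row Rps27rt on the same strand had 10266 and 10375 counts in the LGG library, and the pairs Rpl26 with Gm15772, Rpl30 with Gm12191, and Rpl34 with Rpl34-ps1 were as close. Rps4l lies opposite Tmtc1, which had 656 counts in the LGG library against 404 for Rps4l, and the labels do not state if strand was used in counting. The levels of these 5 members are uncertain for that reason. Without them, every member median below moved by at most 0.01 on the log2 scale, and 7 in place of 9 members passed the size rule described below in LGG against untreated.

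Ratios below are log2 ratios of TMM-scaled counts. A ratio was past the size rule when it was at least 1.2-fold (0.26 on the log2 scale) with a 95% counting interval that excluded 0, and the same rule was applied to all 14450 genes with a mean of at least 1 CPM. The members varied little. The log2 range of a member over the 4 libraries had a median of 0.18 and reached 0.38 at most, for Rps26, and all 81 stayed under 0.5. The 2210 other genes with a mean of at least 100 CPM had a median range of 0.19, and 2050 of them stayed under 0.5. Most members were highest in the same library: 62 of 81 in LGG, 17 in E. coli, 1 in PBS and 1 in untreated colon. The lowest library was untreated colon for 61 members and PBS for 20 with TMM, but with plain library totals it was PBS for 53, untreated colon for 24 and LGG for 4. With library totals the highest was LGG for 53 members, E. coli for 23, PBS for 1 and untreated colon for 4.

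In LGG against PBS, which sets the probiotic against its vehicle, the members were slightly higher as a group. The ratio was above 0 for 76 of 81 members, against 49.3% of all genes, and the median was 0.11, against -0.0026 for all genes. The small subunit had a median of 0.09 and the large subunit 0.12, and the summed counts gave 0.11 (0.11 to 0.12). The size rule was passed by 3 members, all higher in LGG, beside 4.59% of all genes higher and 4.26% lower. Rps26, a small subunit protein at the mRNA exit channel, had 368 CPM in LGG and 283 in PBS, a log2 ratio of 0.38 (0.33 to 0.43). Rpl36, a large subunit protein, had 199.7 CPM in LGG and 158 in PBS, a ratio of 0.34 (0.27 to 0.40). Rpl18, also of the large subunit, had 612 CPM in LGG and 510 in PBS, a ratio of 0.26 (0.23 to 0.30) that lies at the edge of the rule. Rplp1 followed just under it at 0.25. At the other end, Rpl7l1 had 72.3 CPM in LGG and 78.0 in PBS, a ratio of -0.11 (-0.21 to -0.01). Rpl14 and Rpl9 were both at -0.01, with intervals that included 0. The counting interval lay above 0 for 66 members and below 0 for 2, beside 14.3% and 13.1% of all genes. The members have many counts and narrow intervals, with a median half-width of 0.04 against 0.18 for all genes. Shares of all genes by this interval are therefore not a like comparison, here and below. Of the 134 other genes of at most 1000 bases with at least 100 CPM, the interval lay above 0 for 90 and below 0 for 8.

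In E. coli against PBS the members were again higher as a group, by less. The ratio was above 0 for 76 of 81 members, against 50.7% of all genes, with a median of 0.06 against 0.0022. Both subunits were close to it, at 0.06 for the small and 0.07 for the large, and the summed counts gave 0.07 (0.06 to 0.07). None of the members passed the size rule, beside 2.1% of all genes higher and 3.43% lower. The highest were Rps28, a small subunit protein, with 274 CPM in E. coli and 243 in PBS (ratio 0.18, 0.12 to 0.23), and Rpl28 at 0.16, Rpl36 at 0.15 and Rplp0 at 0.15. The lowest was Rpl7l1 at -0.10, with an interval that included 0, and Rps24, Rpl39 and Rpl41 were all within 0.01 of 0. The counting interval lay above 0 for 55 members and below 0 for none, while over all genes it lay above 0 for 10% and below 0 for 8.93%. For the 134 short genes with at least 100 CPM it lay above 0 for 20 and below 0 for 26.

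In LGG against E. coli the difference between the bacteria was small. The ratio was above 0 for 63 of 81 members, against 49.9% of all genes, and the median was 0.04 against -0.00021. None passed the size rule, beside 5.08% of all genes higher and 4.91% lower. The counting interval lay above 0 for 43 members and below 0 for 7, beside 16.4% and 16.2% of all genes. For the 134 short genes with at least 100 CPM it lay above 0 for 100 and below 0 for 8. Among the members, Rps26 had the highest ratio of 0.24 (0.20 to 0.28), at 368 CPM in LGG and 311 in E. coli. Rplp1 followed at 0.20, with Rpl36 at 0.18 and Rps27l at 0.18. Toward the other end, Rpl14, with 475 CPM in LGG and 499 in E. coli, had a ratio of -0.07 (-0.10 to -0.04), and Rpl28 was at -0.06. LGG against PBS and E. coli against PBS share the PBS library, and LGG also stands in both comparisons of LGG above.

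PBS against untreated colon compares gavage without bacteria with no gavage. The ratio was above 0 for 61 of 81 members, against 50.4% of all genes, and the median was 0.07 against 0.0017, but with plain library totals in place of TMM only 27 were above 0, the median was -0.02 and 31.7% of all genes were above 0. The summed counts turned likewise, from 0.05 (0.05 to 0.06) with TMM to -0.04 with library totals, so no direction of the group is given for this pair. None of the members passed the size rule with TMM, beside 8.1% of all genes higher and 11.1% lower. With TMM the counting interval lay above 0 for 49 members and below 0 for 8, beside 20.3% and 18.3% of all genes. For the 134 short genes with at least 100 CPM it lay above 0 for 91 and below 0 for 7. Rpl39, which lines the exit tunnel of the large subunit, had 316 CPM in PBS and 265 in untreated colon, a ratio of 0.25 (0.20 to 0.31). Rpl41 and Rpl9 were at 0.23 and 0.22, and Rpl7l1 at 0.20. Rps26 had 283 CPM in PBS and 329.7 in untreated colon, a ratio of -0.22 (-0.27 to -0.17), and Rpl36 and Rpl8 were at -0.18 and -0.12. Rps4l had the lowest ratio, -0.25 (-0.49 to -0.00078), from 202 and 426 counts.

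Both bacteria were also set against untreated colon. In LGG against untreated the ratio was above 0 for 80 of 81 members, against 49.7% of all genes, with a median of 0.16 against -0.0015. The size rule was passed by 9 members, all higher in LGG, beside 9.38% of all genes higher and 13.1% lower. These were Rpl41 at 0.37 (0.34 to 0.40), Rps27l at 0.34 (0.25 to 0.42), Rpl39 at 0.32 (0.28 to 0.36) and Rps27a at 0.30 (0.26 to 0.34), with Rpl34, Rplp1, Rpl22l1, Rps27 and Rpsa. Rps4l was the exception below 0, at -0.11 with an interval that included 0. The counting interval lay above 0 for 78 members and below 0 for none, beside 24.7% and 23% of all genes. In E. coli against untreated the ratio was above 0 for 77 members, against 51% of all genes, with a median of 0.12 against 0.0048. None passed the size rule, beside 9.65% of all genes higher and 14.2% lower, and the interval lay above 0 for 74 members and below 0 for 1, beside 24.9% and 22.4%. Rpl9, Rpl31 and Rpl39 were each at 0.25 and Rps20 at 0.23, while Rps4l, Rps26, Rplp2 and Rpl36 were at -0.14, -0.08, -0.03 and -0.02. With library totals these medians were 0.06 in LGG and 0.03 in E. coli, with 67 and 61 members above 0, beside 31.7% and 34.2% of all genes, and only 1 and 0 past the rule, because that scaling lowers the median of all genes by 0.10 and 0.08. With TMM, the 134 other genes of at most 1000 bases with at least 100 CPM had higher medians than the members in both comparisons. In LGG their median was 0.27, with 99.3% above 0, and 70 were higher and 1 lower past the rule. The counting interval lay above 0 for 131 of the 134 and below 0 for 1. In E. coli their median was 0.14, with 85.1% above 0, and 34 were higher and 3 lower. There the interval lay above 0 for 98 and below 0 for 12.

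**Figure D2:**
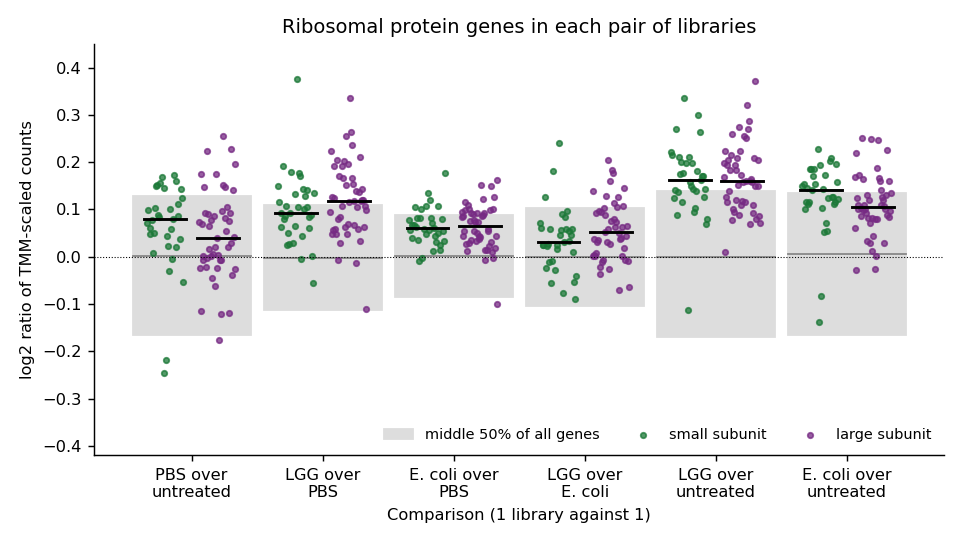
Log2 ratio of each of the 81 genes in 6 pairs of libraries, 33 small and 48 large subunit genes, with the subunit median as a bar and the middle 50% of all 14450 genes in grey. The middle 50% of the members is narrower than that of all genes in every pair, and the members lie mostly above 0. For PBS over untreated the group lies around 0 or below it when library totals replace TMM.

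Members differed in which library was the lowest. For some, the PBS library was the lowest and LGG the highest. Rps26 had 368 CPM in LGG, 311 in E. coli, 283 in PBS and 329.7 in untreated colon. Rpl36 had 199.7, 176, 158 and 179 CPM in the same order, and Rpl8, a large subunit protein near the catalytic centre, had 720, 666, 611 and 665. Untreated colon was thus near or above E. coli for these genes, and PBS was their lowest library with library totals as well. For others untreated colon was the lowest by a clear step. Rpl41 had 723 CPM in LGG, 654 in E. coli, 655 in PBS and 559 in untreated colon, and Rpl39 had 331, 315, 316 and 265. Rpl9 had 672, 689, 675 and 579 CPM in the same order. For these genes the gavaged libraries all lay above untreated colon, with library totals as well.

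**Figure D3:**
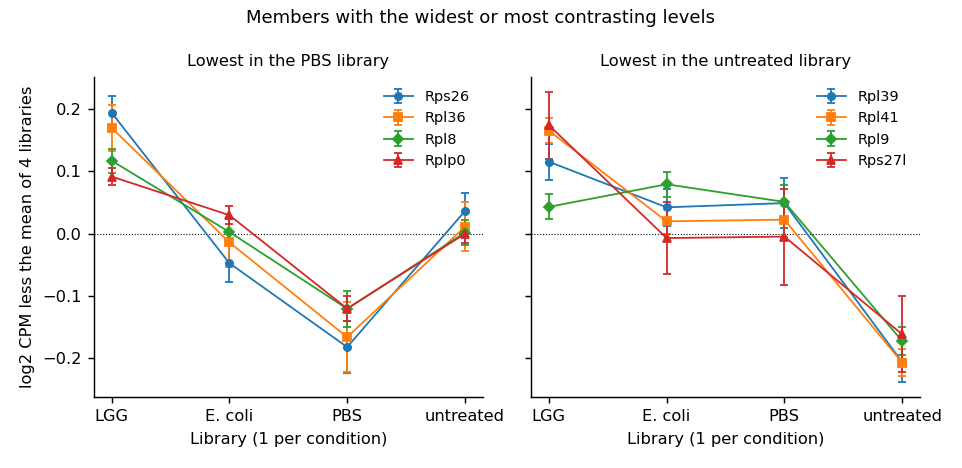
Log2 CPM of single genes less their mean over the 4 libraries, with approximate 95% counting error, for 4 genes lowest in PBS (left: Rps26, Rpl36, Rpl8 and Rplp0) and 4 lowest in untreated colon (right: Rpl39, Rpl41, Rpl9 and Rps27l). The genes were chosen for these patterns; lines join the libraries of a gene and do not mark an order in time.

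The stalk genes did not move as one. Rplp0, the base of the stalk, had 1453 CPM in LGG, 1392 in E. coli, 1255 in PBS and 1364 in untreated colon. Rplp1 had 814 CPM in LGG and 707, 683 and 673 CPM in E. coli, PBS and untreated colon, with LGG alone at the top. Rplp2, the partner of Rplp1 in the stalk dimer, had 301, 293, 276 and 299 CPM in the order LGG, E. coli, PBS and untreated. Against untreated colon LGG therefore had a ratio of 0.28 (0.25 to 0.30) for Rplp1 and 0.01 (-0.03 to 0.05) for Rplp2.

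Per kilobase of listed transcript, Rps27l, Rpl7l1 and Rps4l were below their parents Rps27, Rpl7 and Rps4x in every library, for instance 208 CPM per kilobase for Rps27l and 614 for Rps27 in LGG. Rpl22l1 was above its parent Rpl22, at 230.4 against 107 CPM per kilobase in LGG, where the listed Rpl22 transcript is the longer by far. In CPM, Rps27l, which p53 is known to induce, had 95.1 CPM in LGG, 83.9 in E. coli, 84.0 in PBS and 75.4 in untreated colon, and its parent Rps27 had 351, 322, 307 and 291. Rpl22l1 had 108, 101, 99.95 and 89.9 CPM in the same order, and its parent Rpl22 had 250.9, 250.1, 243 and 215. These genes were all lowest in untreated colon with TMM, but with library totals Rps27 was lowest in PBS. Rpl7l1 went the other way from Rpl7 in LGG against PBS, at -0.11 against 0.11, with Rpl7l1 at 72.3, 72.8, 78.0 and 68.1 CPM and Rpl7 at 660.0, 637, 613 and 591 in the order LGG, E. coli, PBS and untreated. Rpsa, a small subunit protein also known as the laminin receptor, had 1013 CPM in LGG, 975 in E. coli, 942 in PBS and 843 in untreated colon. Rpl36al, which the symbol rule leaves out, had 180 CPM in LGG, 164 in E. coli, 170 in PBS and 153 in untreated colon.

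Some subunits are made as fusions to ubiquitin or a ubiquitin-like protein. Rps27a, whose product carries ubiquitin, had 467 CPM in LGG, 437 in E. coli, 428 in PBS and 380 in untreated colon. Untreated colon was its lowest library. Fau, the ubiquitin-like fusion of the small subunit, which the symbol rule leaves out, had 491 CPM in LGG, 417 in E. coli, 419 in PBS and 421 in untreated colon, with LGG alone higher.

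In the pairs with the PBS library, the ratio of a member went with the base composition of its transcript. Transcript GC was known for 80 members, with a median of 51.3% and a range of 40.6% to 60.8%. Spearman's correlation over these 80 genes was 0.45 for LGG and 0.41 for E. coli, both against PBS, and over 14256 genes it was 0.15 and 0.22. Over the 2192 other genes with known GC and at least 100 CPM it was 0.12 and 0.33. The value for E. coli was thus nearer to that of the members than the value over all genes was. In PBS against untreated it was -0.41 over the members, -0.04 over all genes and -0.0066 over those 2192 genes. In the pairs without PBS it was weaker over the members, at 0.23 in LGG against E. coli, -0.03 in LGG against untreated and -0.23 in E. coli against untreated. The 20 members with the lowest GC had a median ratio of 0.08 in LGG against PBS and the 20 with the highest GC 0.15, and in PBS against untreated these medians were 0.08 and 0.02. All points of a comparison share the same libraries, and the comparisons named here share the PBS library, so these are descriptions of 80 genes in those libraries. Rps26 stands apart from the trend, with a GC of 48.6% and the largest ratio in LGG against PBS. Taking the median ratio of other genes in the same GC bin off each ratio left member medians of 0.12 for LGG and 0.06 for E. coli, both against PBS, and 0.05 for PBS against untreated.

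**Figure D4:**
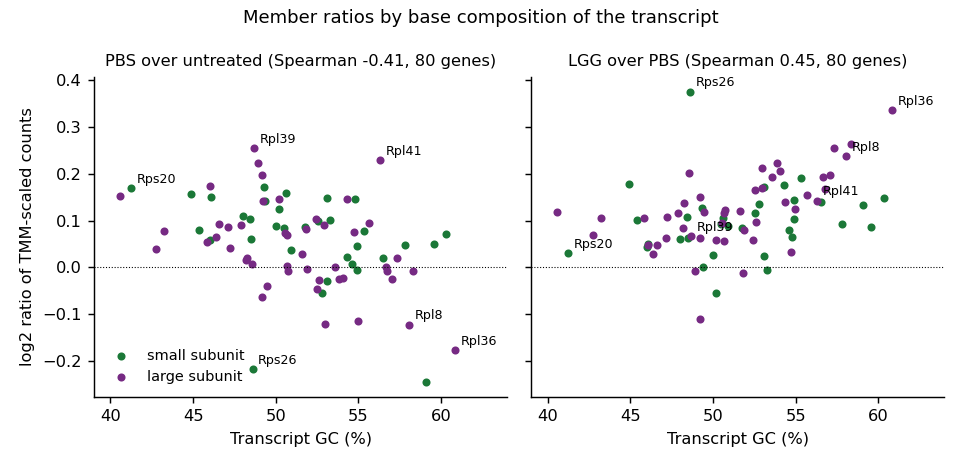
Log2 ratio against transcript GC (%) for 80 genes, PBS over untreated (left) and LGG over PBS (right), small and large subunit genes in 2 colours. The correlation is -0.41 on the left and 0.45 on the right; both panels share the PBS library, and Rps26 lies off the trend in both.

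The members are short, with a median listed length of 696 bases against 2844 for all genes, and 63 of them have at most 1000 bases. In LGG against PBS the ratios of all other genes went down with length, from a median of 0.11 in the shortest of 20 bins to -0.11 in the longest. The 980 other genes of at most 1000 bases had a median of 0.11, the same as the members, and the 134 of these with at least 100 CPM had 0.10. Taking the median of other genes in the same length bin off each ratio left a member median of 0.01 in LGG against PBS, -0.05 in LGG against E. coli and -0.0052 in LGG against untreated colon. In E. coli against PBS the other genes showed little of this, with 0.0034 in the shortest bin and -0.02 in the longest. There the short abundant genes had a median of -0.01 with 44.8% above 0, while the members had 0.06, and the length correction left 0.06. The members therefore lay above other short genes in E. coli against PBS and at their level in LGG against PBS. In PBS against untreated the short abundant genes had a median of 0.15, above the members, and the length correction left -0.000286. Length was looked at after the ratios had been seen.

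**Figure D5:**
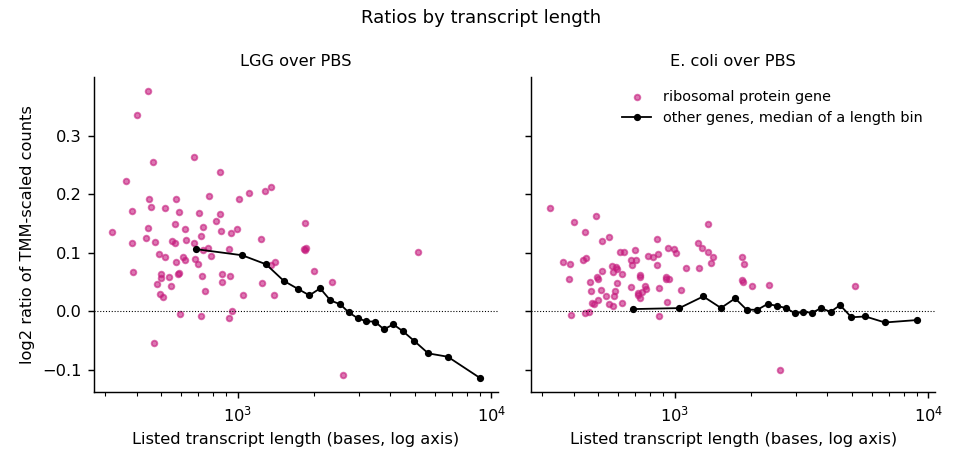
Log2 ratio against listed transcript length (bases, log axis) in LGG over PBS (left) and E. coli over PBS (right); points are the 81 genes and the line joins medians of other genes in 20 length bins. The line falls with length in the left panel, from 0.11 to -0.11, and stays near 0 in the right panel, where most members lie above it.

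Other genes of ribosome production were read from lists for the same pathway. Translation factors and other genes with TOP mRNAs, such as the elongation factors Eef1a1 and Eef2, numbered 22. Their median against PBS was 0.04 for LGG and 0.06 for E. coli, and that of PBS against untreated was 0.05, and none passed the size rule in any of the 6 comparisons. Eef1a1 had 5356 CPM in LGG, 5563 in E. coli, 5244 in PBS and 5368 in untreated colon. Eef2, which drives translocation, had 2480.0, 2661, 2390.0 and 2586 CPM in the same order, with E. coli as the highest library. The 41 genes of nucleolar ribosome assembly had a median of -0.11 in LGG against PBS, where 5 were past the rule and lower and none was higher, beside 4.26% and 4.59% of all genes. Among these, Rrp1b, an rRNA processing factor, was at -0.54, Gnl3 (nucleostemin) at -0.39, Mdn1, a remodelling ATPase, at -0.36 and Noc4l at -0.34. The same list had -0.06 in E. coli against PBS with 2 lower, beside 3.43% of all genes, and 0.17 in PBS against untreated with 7 higher, beside 8.1% of all genes. In PBS against untreated, Utp20, Gar1, Rrp1b and Nop2 were the highest, at 0.40, 0.37, 0.35 and 0.34. Rrp1b had 9.67 CPM in LGG, 11.7 in E. coli, 14.1 in PBS and 11.1 in untreated colon, with PBS as the highest library. The assembly genes thus had medians of the other sign from the members against PBS. No length correction was made for this list, and in LGG against PBS the ratios of other genes fell with length. The part of length in this contrast was not tested.

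Of 15 genes of RNA polymerase I, which makes ribosomal RNA, 2 were past the rule and lower in LGG against PBS and none was higher. This stands beside 4.26% of all genes lower and 4.59% higher, and the median of the 15 was 0.01. Polr1a, its largest subunit, had 22.0 CPM in LGG, 23.7 in E. coli, 24.9 in PBS and 30.1 in untreated colon. The 17 genes that control ribosomal protein mRNAs had a median of -0.07 in LGG against PBS. Of these, 2 were past the rule and higher, beside 4.59% of all genes. They were Akt1s1, an mTOR inhibitor, at 0.35 and Eif4ebp1, a repressor of cap-dependent translation, at 0.31. Larp1 itself had 214 CPM in LGG, 236 in E. coli, 226 in PBS and 224 in untreated colon, and Mtor had 52.4, 58.4, 57.0 and 58.3 CPM. Both were lowest in LGG, with no correction for length, and both were named after their values were seen. The 77 mitochondrial ribosomal protein genes, whose products form a separate ribosome, had a median of 0.09 in LGG against PBS. There 6 were past the rule and higher and none was lower, beside 4.59% and 4.26% of all genes. Of the 980 other genes of at most 1000 bases, which had a median of 0.11, 144 were higher and 9 lower. The 77 were not corrected for length. In E. coli against PBS the median of the 77 was -0.03 with none past the rule, beside 2.1% of all genes higher and 3.43% lower. Mrpl52, Mrps24 and Mrps12 were the highest of the 77 in LGG against PBS, at 0.37, 0.35 and 0.34. Of 8 hosts of small nucleolar RNAs 6 were in the table, and Gas5, a TOP transcript, had 107 CPM in LGG, 117 in E. coli, 118 in PBS and 94.5 in untreated colon. In LGG against untreated, 14 mitochondrial and 5 assembly genes were past the rule and higher and none of either list was lower, beside the 9.38% of all genes higher and 13.1% lower given above. Of the 980 other genes of at most 1000 bases, 289 were higher and 43 lower in that pair. In E. coli against untreated the mitochondrial and assembly lists had 5 and 3 higher genes, with 1 lower in each, beside 9.65% of all genes higher and 14.2% lower. Between LGG and E. coli, 4 mitochondrial genes were higher and none lower, and 1 assembly gene was lower and none higher, beside 5.08% of all genes higher and 4.91% lower. There 115 of the 980 short genes were higher and 25 lower. In PBS against untreated, 3 mitochondrial genes were higher and 1 lower, 1 polymerase gene was higher and 2 lower, and 2 hosts were higher and 1 lower, beside 8.1% of all genes higher and 11.1% lower.

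Colon markers were at high level in all libraries: all 8 epithelial markers were detected, with a sum of 17414 CPM in LGG, 15910 in E. coli, 16264 in PBS and 14201 in untreated colon. The 8 smooth muscle markers summed to 11550 CPM in LGG, 10559 in E. coli, 11564 in PBS and 12538 in untreated colon. Untreated colon thus had the lowest epithelial and the highest muscle sum. Its summed level of the members was the lowest with TMM, but PBS was the lowest by share of counts. The 9 measured crypt and cycling markers summed to 446, 472, 476 and 532 CPM in the order LGG, E. coli, PBS and untreated, with Olfm4 at or near 0. The 11 measured pancreatic acinar markers were found in every library, at 49.9 CPM in LGG, 89.1 in E. coli, 24.1 in PBS and 3.82 in untreated colon, with Amy2a5 at 0 in all. B and plasma cell markers, 9 of 10 in the table, summed to 72.1, 93.6, 94.5 and 50.97 CPM, and the 8 adipocyte markers to 226, 112, 166 and 223. The 7 T cell markers summed to 13.5, 14.9, 14.5 and 13.7 CPM, the 7 erythroid markers to 29.4, 23.5, 20.5 and 41.7, with Slc4a1 at 0 in PBS, and the 8 neuron and glia markers to 99.9, 83.7, 94.7 and 123. The 7 mesothelium markers summed to 3574, 3307, 3395 and 2821 CPM, nearly all of it Krt19, which colonic epithelium also expresses. Without Krt19 the other 6 summed to 22.0 CPM in LGG, 15.4 in E. coli, 36.2 in PBS and 41.6 in untreated colon, which was then the highest. The 6 goblet markers summed to 18436, 17086, 17388 and 17624. That sum puts untreated colon above E. coli and PBS, but most of the 6 went the other way. Against untreated colon, 5 were higher and 1 lower in LGG, in E. coli and in PBS. Their median ratios there were 0.30, 0.21 and 0.29, beside 49.7%, 51% and 50.4% of all genes above 0. The part of these cell types in the ribosomal protein ratios was not tested.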

How the data were processed

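The authors deposited 1 table of expected counts per gene with RefSeq accessions and mm9 coordinates. The submitters' processing notes name TopHat2, HOMER and mm9; versions and roles are not stated there. Per the labels' protocols the kit was Illumina TruSeq RNA. Deposited counts rise in steps of 0.5, of unstated origin, and were rounded to whole numbers.

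TMM factors came from edgeR 4.0.16 (R 4.3.3). Ratios used a prior of 0.5 counts, scaled by library size, and exact conditional binomial (Clopper-Pearson) 95% intervals in Python 3.11.15 with scipy 1.17.1. Reads lack molecular identifiers and PCR copies are not independent, so intervals, and the 3 counts taken as the limit of a 0, cover only counting error. With 1 library per condition no test or p-value was possible. The steps were tested on simulated data.

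Named genes are the stalk genes, paralogs with their parents, Rpsa, the ubiquitin fusions, the 4 highest and 4 lowest members per comparison with at least 100 counts in both libraries, the 5 highest and 5 lowest per kilobase, and up to 4 genes per list; Larp1, Mtor, Krt19, Olfm4 and Polr1a were named after their values were seen. A few genes under this naming rule are not reported here. Members and lists were chosen with earlier results of these data known. Alternatives were DESeq2 1.42.0 size factors, library totals, upper-quartile factors, TMM without the members, library totals without non-coding rows, and other filters, priors and thresholds. Trends with GC, length and level, and the removal of overlapped members, were added after seeing the data.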

Additional observations from a re-analysis of the deposited data

How the results depend on the processing

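With library totals in place of TMM, PBS against untreated turned to a member median of -0.024 with 3 members past the size rule and a summed ratio of -0.038. Library totals that leave out the non-coding rows gave -0.0091 with 2 members past the rule and a summed ratio of -0.023. In this pair the median of all genes was -0.088 with library totals and -0.073 without the non-coding rows. Of all genes, 31.7% and 34.9% were then above 0. The share of all genes past the rule was worked out with TMM only. The member counts under other scalings, taken in both directions together, therefore have no such share beside them. For LGG against untreated, library totals gave a median of 0.061, a summed ratio of 0.064 and 1 member past the rule, and without the non-coding rows 0.074, 0.077 and 1. For E. coli against untreated the medians were 0.035 and 0.041, and the summed ratios 0.036 and 0.042. The causes were not tested. Other summed ratios with library totals were 0.10 for LGG and 0.074 for E. coli, both against PBS, and 0.028 between LGG and E. coli. Without the non-coding rows they were 0.10 for LGG against PBS and 0.035 for LGG against E. coli. Upper-quartile factors gave summed ratios of 0.047 for PBS against untreated, 0.10 for LGG against PBS, 0.038 for LGG against E. coli, 0.15 for LGG against untreated with 5 members past the rule, and 0.11 for E. coli against untreated. DESeq2 size factors gave 0.12 for LGG against PBS and 0.17 for LGG against untreated. At 1.5-fold and at 2-fold, 0 members passed in LGG against PBS and 0 in LGG against untreated. Of all 14450 genes, 26 were higher and 14 lower at 2-fold in LGG against PBS, and 66 and 85 in LGG against untreated. So few genes passed that 0 members does not set them apart. The share of all genes at 1.5-fold was not worked out.

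Less the trend with length, a step added after seeing the data, member medians were -0.000286 for PBS against untreated, 0.012 for LGG against PBS, -0.048 for LGG against E. coli, -0.0052 for LGG against untreated and 0.058 for E. coli against untreated. Less the trend with mean CPM they were -0.023, 0.033 and 0.017 for PBS, LGG and E. coli, each against untreated. Without the non-coding rows, the members took 4.18% of counts in LGG, 4.08% in E. coli, 3.90% in PBS and 3.96% in untreated colon. Of the remaining alternatives, 149 values of the groups and 734 of single genes or lists moved by less than their counting error, or counts by less than 1.5 times, and 64 of single genes or lists moved by more with no turn of a ratio larger than its counting error. No paired analysis was possible because each condition has 1 library, and for the same reason no replicate could be left out. The counting interval of a typical member reached about 0.04 to either side of its ratio, so smaller ratios of a single gene were not detectable at this depth, and the spread between mice is unknown.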
